A study of Mus musculus with 32 samples.

Results

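Ebf1 and Pax5, which encode transcription factors of early B-cell development, were followed through every probe set that the array's annotation assigns to them. A probe set is a group of short probes that the array summarises to 1 value, and Ebf1 has 5 and Pax5 has 2, which makes 7 of the 45101 probe sets measured. In the group comparisons each was followed on its own. Means over a gene were used for the relation between the 2 genes, for genes of similar pattern and where stated. RNA was measured on 32 Affymetrix arrays of mouse cells in 3 experiments. In the first, the pre-B cell line 230238 was infected with pMIG-Ebf1-engrailed (3 arrays), a retroviral vector for Ebf1 fused to the Engrailed repressor domain, or with the empty pMIG vector (3 arrays), and GFP-positive cells were sorted. In the second, Ebf1-/- C57BL/6J fetal liver cells (E14.5) grown on OP9 stroma were given Ebf1-ER, a fusion of EBF1 that stays inactive until 4-hydroxytamoxifen binds it, and were collected 0, 6, 12 and 24 h after 0.1 µM 4-hydroxytamoxifen was added (2 arrays per time). All 4 time groups lack intact Ebf1 alleles of their own and carry Ebf1-ER. In the third, live cells were sorted from enlarged lymph nodes of C57BL/6J Ebf1+/-Pax5+/- mice aged about 30 weeks, which have 1 disrupted allele of each gene (8 nodes, 2 arrays each), and set against sorted pro-B cells of wild-type C57BL/6J mice (2 arrays). The mice carry the disrupted alleles in every cell, and the node sort was for live cells rather than for a cell type. The age of the wild-type mice is not given in the sources used here.

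EBF1 binds DNA as a dimer and opens and activates B-lineage genes in lymphoid progenitors. One of the genes it activates is Pax5, whose product commits cells to the B lineage by activating B-cell genes and repressing those of other lineages. PAX5 in turn sustains Ebf1, and heterozygous loss of either gene is known from B-cell leukaemia.

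The Ebf1 gene spans chr11:44618100-45008096 and Pax5 spans chr4:44524748-44710694 in the GRCm38.p6 assembly (RefSeq). Of the Ebf1 probe sets 3, namely 1416301_a_at, 1416302_at and 1448293_at, share a representative sequence in the annotation and are not independent of each other. Probe set 1439789_at has a representative sequence of its own and none is given for 1457441_at. Of the Pax5 probe sets, 1421765_at has one and 1454401_at has none. Where within each gene the probes lie was not analysed here. The RefSeq promoter windows (250 bases before to 50 after a start site, GRCm38.p6) are shown because both genes are regulated targets as well as regulators, with E-boxes (CANNTG, the site of E proteins such as E2A) in capitals. They are Ebf1 at chr11:44619978-44620277 on the plus strand and Pax5 at chr4:44710645-44710944 on the minus strand.
Ebf1: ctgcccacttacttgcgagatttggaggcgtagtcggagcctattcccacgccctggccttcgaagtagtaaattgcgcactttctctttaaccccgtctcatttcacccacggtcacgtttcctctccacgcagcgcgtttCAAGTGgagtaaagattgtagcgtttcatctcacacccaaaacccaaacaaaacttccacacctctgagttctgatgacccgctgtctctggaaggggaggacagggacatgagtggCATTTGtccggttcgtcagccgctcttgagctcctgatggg
Pax5: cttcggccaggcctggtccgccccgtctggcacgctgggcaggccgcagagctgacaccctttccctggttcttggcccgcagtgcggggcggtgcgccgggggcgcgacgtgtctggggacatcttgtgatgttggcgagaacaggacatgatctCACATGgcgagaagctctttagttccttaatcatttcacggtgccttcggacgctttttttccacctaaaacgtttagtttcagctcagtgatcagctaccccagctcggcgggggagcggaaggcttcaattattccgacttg
The Ebf1 window held 2 E-boxes, CAAGTG at -108 and CATTTG at 10 from the start site, and the Pax5 window held CACATG at -94. A second Ebf1 window, at chr11:44617850-44618149, held none. An E-box was present in 72.3% of the 32851 promoter windows of the same length. The core of the EBF motif, CCCNNGGG, searched on both strands, was in 13.7% of all windows, and the full motif, which has T before that core and A after it, in 0.904%. Neither was in these 3 windows.

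The deposited values were log2 values centred on each probe set within an experiment. A value of 0 is therefore near the middle of the arrays of that experiment, and no value is an expression level. Differences within an experiment remain readable, and levels cannot be compared between probe sets or experiments. A difference was called when limma's Benjamini-Hochberg adjusted p over all 45101 probe sets was under 0.05. The labels do not say whether the replicates came from separate cultures, so a p-value here reflects only how arrays of a group varied, which may be technical. The number of arrays limits the precision. Arrays differed beyond the groups: on the first principal component the third Ebf1-Engrailed array lay at -20.7 and the other 2 at -61.4 and -62.8, with the empty-vector arrays between 41.6 and 56.6. The 0 h Ebf1-ER arrays lay at -89.4 and -87.6 and all later arrays between 16.5 and 35.7. In the third experiment the wild-type pro-B arrays lay at -108.1 and -118.5 and the node arrays between -16.3 and 35.3. In RNA from mixed cells, fewer cells of a type and less RNA per cell cannot be told apart.

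**Figure D1:**
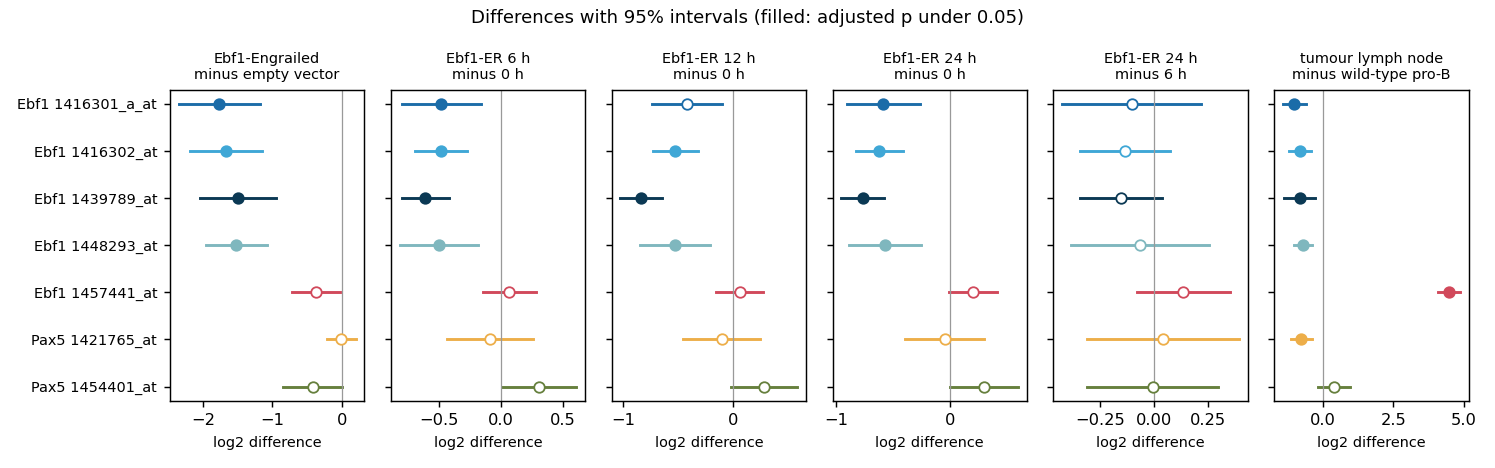
Difference between groups (log2, horizontal axes, with the group named first minus the second) and its 95% interval for each of the 7 probe sets in 6 comparisons; filled points had an adjusted p under 0.05 and open points did not. The other 4 Ebf1 probe sets lie left of 0 in each panel, and 1457441_at lies at 4.48 in the tumour panel.

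Of the 5 Ebf1 probe sets 4 fell in 230238 cells with Ebf1-Engrailed, by 1.50 to 1.77 on the log2 scale, and neither Pax5 probe set passed the test, where 8.84% of all probe sets were called. The targeted gene is itself part of the vector, and which probe sets detect transcript of the vector was not analysed here. Probe set 1416301_a_at had centred log2 values of -1.16, -1.45 and -0.49 with Ebf1-Engrailed, against 0.87, 0.49 and 0.83 with the empty vector. All 3 Ebf1-Engrailed arrays lay below all 3 empty-vector arrays, and the third Ebf1-Engrailed array was the least low. The difference was -1.77 ± 0.25 (SE, n = 3 and 3, limma adjusted p = 0.0068), a fall of 3.41-fold with a 95% interval from 2.27-fold to 5.10-fold.

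Probe set 1416302_at had values of -1.05, -1.24 and -0.47 with Ebf1-Engrailed, against 0.89, 0.47 and 0.89 with the empty vector (-1.67 ± 0.22, adjusted p = 0.0054). Probe set 1448293_at had -1.04, -1.12 and -0.51, against 0.51, 0.51 and 0.87 (-1.52 ± 0.19, adjusted p = 0.0044). Probe set 1439789_at had -1.17, -1.09 and -0.37, against 0.37, 0.65 and 0.85 (-1.50 ± 0.23, adjusted p = 0.0099). The groups were apart for all 4, and in each the third Ebf1-Engrailed array was nearest to the empty vector. Over all probe sets 3.72% were called lower and 14% had all Ebf1-Engrailed arrays below all empty-vector arrays. The call of 1439789_at was lost without Ebf1-Engrailed array 1 (adjusted p = 0.0516) or array 2 (adjusted p = 0.0535), and its adjusted p ranged from 0.00019 to 0.0535 over the 15 alternatives. With samples 1 and 2 alone, chosen after the third arrays were seen to stand apart, all 4 differences were larger, between -1.99 and -1.59.

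The fifth, 1457441_at, had values of -0.36, -0.36 and 0.01 with Ebf1-Engrailed, against -0.01, 0.07 and 0.34 with the empty vector. The groups overlapped, and the difference of -0.37 ± 0.15 did not pass (adjusted p = 0.194, 95% interval -0.72 to -0.03). A fit that also held the replicate number as a block gave an adjusted p of 0.0445, which passed, and over its 15 alternatives the adjusted p ranged from 0.0043, when 1 mean per gene was tested, to 0.461. To ask whether probe sets of 1 gene responded unequally, each was tested as its value minus the mean of the others of its gene, over 21082 such rows. Relative to the other 4, 1457441_at stood 1.24 ± 0.13 higher with Ebf1-Engrailed (adjusted p = 0.0042), where 1.74% of all rows were called higher. The other 4 were not called in this test (adjusted p = 0.130 to 0.637).

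**Figure D2:**
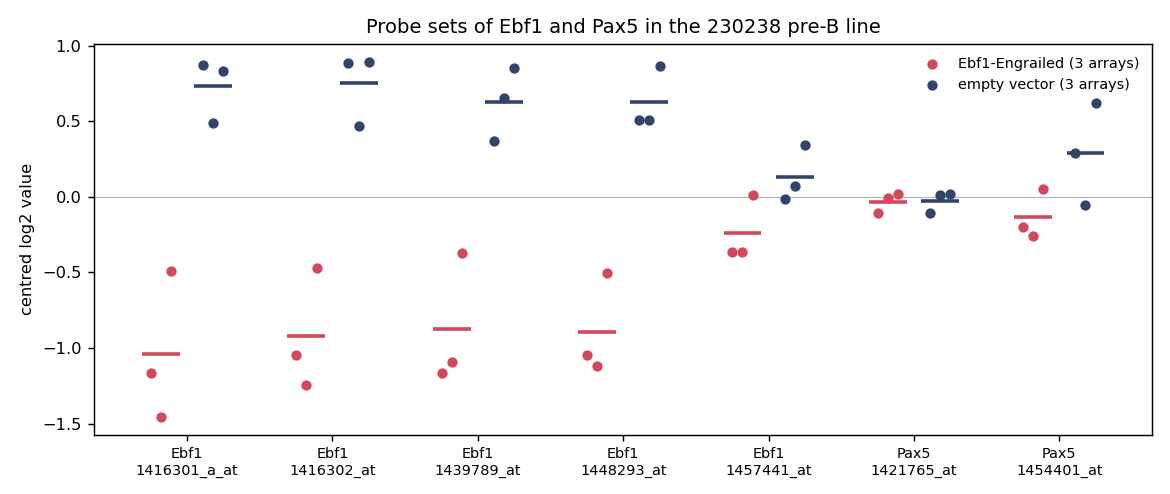
Centred log2 value (vertical axis) on each of the 3 Ebf1-Engrailed and 3 empty-vector arrays for the 7 probe sets, with bars at the group means. The groups are apart for 4 Ebf1 probe sets and overlap for 1457441_at and both of Pax5.

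Pax5 is a known target of EBF1. Its probe set 1421765_at had values of -0.10, -0.01 and 0.02 with Ebf1-Engrailed, against -0.10, 0.01 and 0.02 with the empty vector. The groups overlapped almost fully, and the difference was -0.01 ± 0.09 (adjusted p = 0.974), with an interval from -0.21 to 0.20. Probe set 1454401_at had -0.20, -0.26 and 0.05, against 0.29, -0.05 and 0.62. Its difference of -0.42 ± 0.18 did not pass (adjusted p = 0.232, interval -0.85 to 0.01), and the third Ebf1-Engrailed array lay within the empty-vector range. The difference between the 2 Pax5 probe sets did not pass either (0.42 ± 0.18, adjusted p = 0.298). Centred values give no level, so whether either Pax5 probe set was above background could not be read, here or below.

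Genes around Ebf1 and Pax5 were counted by probe set in the same fit, with both genes left out. Here and below, a value given for a listed gene is that of 1 probe set, and its other probe sets can differ. Of 34 probe sets of genes that EBF1 is known to activate, 20 were lower with Ebf1-Engrailed and none higher (median difference -0.84, against -0.01 over all 34958 named probe sets, of which 1535 were lower and 2138 higher). They included Igll1, a surrogate light chain (-4.14 ± 0.31 on 1 of its probe sets), and Vpreb3 (-3.04 ± 0.33). Of 28 probe sets of PAX5-activated genes, 9 were lower and 5 higher, with Irf4, a transcription factor of B cells, at -2.62 ± 0.30 and Id3, an inhibitor of E proteins, at 2.01 ± 0.09. Of 33 probe sets of genes known to be repressed by PAX5 or EBF1, 11 were higher and 1 lower, among them Fcer1g, an Fc receptor chain (6.55 ± 0.48), and the chemokine receptor Ccr2 (3.75 ± 0.13). Known regulators of Ebf1 or Pax5 had 16 of 49 probe sets lower and 4 higher, with Myb at -2.42 ± 0.38 and Id2 at 2.83 ± 0.27. None of the 7 probe sets of Ebf2, Ebf3 and Ebf4 and none of the 18 of the other Pax genes was called.

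In Ebf1-/- cells carrying Ebf1-ER the same 4 Ebf1 probe sets were highest before 4-hydroxytamoxifen and lower at each later time. This pattern was not seen for 1457441_at. Ebf1-ER is a fusion of EBF1, and which probe sets detect its transcript or that of the disrupted alleles was not analysed here. Probe set 1439789_at had centred log2 values of 0.71 and 0.67 at 0 h, 0.06 and 0.10 at 6 h, -0.16 and -0.13 at 12 h and -0.09 and -0.06 at 24 h. The 0 h arrays lay above every later array. Against 0 h it fell by 0.61 at 6 h, by 0.84 at 12 h and by 0.77 at 24 h (SE 0.08 each, n = 2 and 2, limma adjusted p = 0.00091, 0.00015 and 0.00026).

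Probe set 1416302_at had 0.43 and 0.56 at 0 h, 0.03 and -0.01 at 6 h, 0.01 and -0.06 at 12 h and -0.14 and -0.10 at 24 h. Probe set 1448293_at had 0.36 and 0.58 at 0 h, 0.04 and -0.11 at 6 h, -0.22 and 0.10 at 12 h and -0.04 and -0.15 at 24 h. Probe set 1416301_a_at had 0.31 and 0.52 at 0 h, 0.11 and -0.24 at 6 h, 0.03 and -0.03 at 12 h and -0.11 and -0.23 at 24 h. For all 3 both 0 h arrays lay above the 6 later ones. At 6 h their differences from 0 h were -0.49 ± 0.09 (1416302_at), -0.50 ± 0.14 (1448293_at) and -0.48 ± 0.14 (1416301_a_at), and all passed (adjusted p = 0.0045, 0.0271 and 0.0329). At 12 h 1416301_a_at did not pass (-0.42 ± 0.14, adjusted p = 0.0524), whereas 1416302_at (-0.52 ± 0.09) and 1448293_at (-0.53 ± 0.14) did. At 24 h all 3 passed, at -0.62 ± 0.09, -0.57 ± 0.14 and -0.59 ± 0.14 in the same order.

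The 0 h arrays stood apart for a large part of the array. Over all probe sets 14.7%, 17% and 16.2% were called lower at 6, 12 and 24 h against 0 h, and 29.1%, 31.1% and 29.1% had both later arrays below both 0 h arrays. The part of 4-hydroxytamoxifen itself, of time in culture and of Ebf1-ER in these differences cannot be told apart. The 3 comparisons share the 0 h arrays, and no array without Ebf1-ER was measured at the later times. The cells were grown on OP9 stroma, and of 27 stromal marker probe sets 5 were lower and 1 higher at 6 h. At 12 h 11 were lower and at 24 h 8, with none higher. Among T-cell and B-lineage markers 12 of 26 and 10 of 19 probe sets were lower at 6 h, with 1 and 2 higher. Of 13 myeloid probe sets 5 were lower and 1 higher, and of 11 NK-cell 4 were lower and none higher. Of 18 mature B-cell probe sets 2 were lower and none higher, and of 10 erythroid 1 was lower and 5 higher. Over all 34958 named probe sets 4959 were lower and 5808 higher at 6 h. The part of the cell mix was not tested. Without the 0 h arrays, at 24 h against 6 h, none of the 7 probe sets was called by limma and none had an unadjusted p under 0.05, where 6.13% of all probe sets were called. The 4 differences lay between -0.15 and -0.06. Quantile normalization again, which acted on the centred values, removed all 4 calls at 6 h and left 1 at 12 h and 2 at 24 h. It makes the distributions of centred values equal, which can shrink differences of arrays that stand apart broadly. At 6 h the 4 differences, from -0.61 to -0.48 in the reported fit, then lay between -0.32 and -0.26. How far this accounts for the lost calls was not tested.

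Probe set 1457441_at had -0.15 and -0.01 at 0 h, -0.04 and 0.02 at 6 h, 0.01 and -0.05 at 12 h and 0.15 and 0.10 at 24 h. Both 24 h arrays, but only 1 array each at 6 and 12 h, lay above both 0 h arrays. None of its differences from 0 h passed (0.07 ± 0.09 at 6 h, 0.06 ± 0.09 at 12 h and 0.20 ± 0.09 at 24 h, adjusted p = 0.662, 0.679 and 0.139). Its difference from the other 4 did pass. Relative to their mean it stood 0.59 ± 0.11 higher at 6 h, 0.64 ± 0.11 at 12 h and 0.84 ± 0.11 at 24 h (adjusted p = 0.0089, 0.0055 and 0.0013), where 8.49%, 9.72% and 12.2% of all rows were called higher. At 24 h against 6 h this did not pass (0.25 ± 0.11, adjusted p = 0.353), where 1.17% of rows were called. At 12 h 1439789_at stood 0.48 ± 0.12 lower than the mean of its other 4, which includes 1457441_at (adjusted p = 0.0240). Over all rows 9.57% were called lower.

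**Figure D3:**
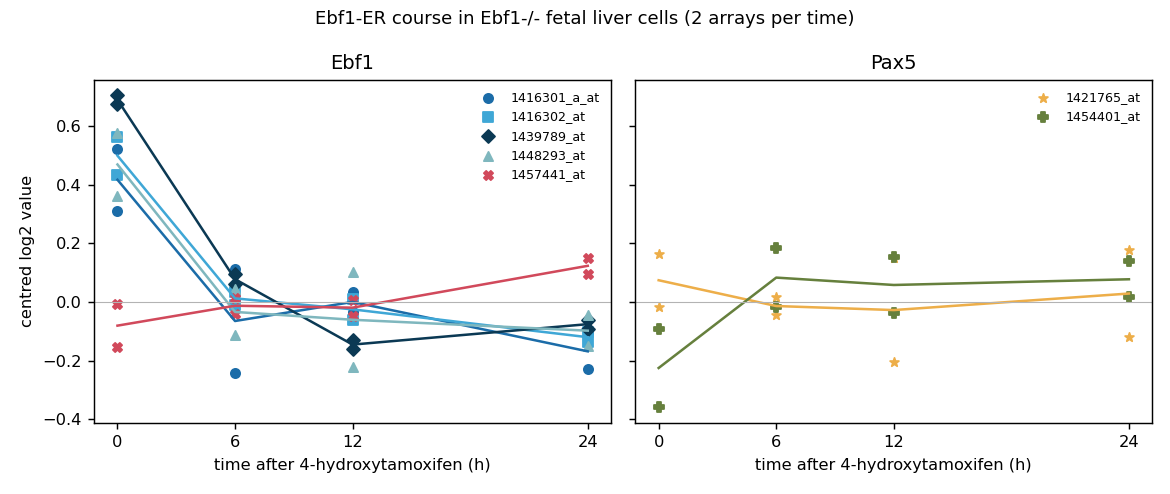
Centred log2 value (vertical axes) against hours after 4-hydroxytamoxifen (horizontal axes) for the Ebf1 and the Pax5 probe sets, with a point per array and lines through the means of 2 arrays. At 0 h 4 Ebf1 probe sets are highest, and there 1457441_at lies below 0.

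Pax5 did not pass at any time. Probe set 1421765_at had 0.17 and -0.02 at 0 h, 0.02 and -0.04 at 6 h, 0.15 and -0.20 at 12 h and 0.18 and -0.12 at 24 h. The 2 arrays lay 0.06 apart at 6 h and further apart at the other times, all times overlapped with 0 h, and at 24 h the difference from 0 h was -0.05 ± 0.15 (adjusted p = 0.863, interval -0.40 to 0.31). Probe set 1454401_at had -0.09 and -0.36 at 0 h, -0.02 and 0.18 at 6 h, 0.15 and -0.04 at 12 h and 0.14 and 0.02 at 24 h. Both 0 h arrays lay below all later ones, and the difference at 24 h was 0.30 ± 0.13 (adjusted p = 0.123, interval 0.00 to 0.61). Over all probe sets 33.1% had both 24 h arrays above both 0 h arrays. At 24 h against 6 h the differences of both were small against their errors (0.04 ± 0.15 and -0.01 ± 0.13).

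Of the 34 probe sets of EBF1-activated genes, 6 were higher and 11 lower at 6 h against 0 h, 7 higher and 10 lower at 12 h, and 11 higher and 4 lower at 24 h (medians -0.20, -0.07 and 0.21). At 24 h against 6 h 11 were higher and none lower (median 0.32). Over all 34958 named probe sets 5808 were higher and 4959 lower at 6 h against 0 h, 6213 and 6076 at 12 h, 6528 and 5320 at 24 h, and 1369 and 1059 at 24 h against 6 h (medians between 0.01 and 0.04). Some of the genes that were higher at 24 h against 6 h had been lower at 6 h against 0 h. Cd72 stood at -0.62 ± 0.09 at 6 h against 0 h and at 0.86 ± 0.09 at 24 h against 6 h, and Blk, a B-cell kinase, at -0.76 ± 0.10 and 0.58 ± 0.10. Igll1 stood at 2.85 ± 0.09 at 24 h against 6 h and Cd24a, a surface glycoprotein, at 2.27 ± 0.11, each on 1 of its probe sets. Of 28 probe sets of PAX5-activated genes, none was higher and 9 lower at 6 h against 0 h, 4 were higher and 7 lower at 24 h against 0 h, and 3 were higher and 2 lower at 24 h against 6 h. Genes repressed by PAX5 or EBF1 had 21 of 33 lower and none higher at 6 h against 0 h, 23 lower and 1 higher at 24 h against 0 h, and 3 lower and 1 higher at 24 h against 6 h. Of 49 probe sets of known regulators, 23 were lower and 2 higher at 6 h against 0 h. At 24 h 17 were lower and 3 higher against 0 h, and 2 lower and 8 higher against 6 h. The 8 belonged to Ets1 (1.23 ± 0.14), Foxo1 (0.98 ± 0.10) and Id2 (0.55 ± 0.08), each value from 1 of its probe sets. Ets1 and Foxo1 are transcription factors of B lymphocytes. Among the EBF family Ebf4 was higher at 6 h (0.29 ± 0.09, adjusted p = 0.049) and at 12 h (0.34 ± 0.09, adjusted p = 0.024) against 0 h, and at 12 h Ebf3 was lower on 2 of 3 probe sets (-0.94 ± 0.29 and -0.85 ± 0.23).

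In tumour lymph nodes 4 Ebf1 probe sets and 1 of Pax5 were lower than in wild-type pro-B cells, and the fifth Ebf1 probe set was 22.4-fold higher. Genotype, tumour state and the cells sorted differ together between these groups, so their parts cannot be told apart. Node values are means of the 2 arrays of a node. Probe set 1416301_a_at ran over the 8 nodes between -0.43 and 0.33 with a median of -0.11, and the wild-type arrays had 1.10 and 0.70. All 8 nodes lay below both wild-type arrays, and the difference was -1.01 ± 0.18 (SE, n = 8 and 2, limma adjusted p = 0.0046, interval -1.41 to -0.61).

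Probe set 1416302_at ran between -0.52 and 0.37 (median -0.03), with wild-type arrays at 0.77 and 0.70 (-0.81 ± 0.18, adjusted p = 0.0127). Probe set 1439789_at ran between -0.75 and 0.51 (median -0.12), with wild-type arrays at 0.74 and 0.69 (-0.83 ± 0.25, adjusted p = 0.0470). Probe set 1448293_at ran between -0.46 and 0.17 (median -0.06), with wild-type arrays at 0.71 and 0.55 (-0.72 ± 0.14, adjusted p = 0.0079). Every node lay below both wild-type arrays for these probe sets too, the nearest being node 292. Over all probe sets 7% were called lower and 7.9% had all nodes below both wild-type arrays. The call of 1439789_at was also lost without node 277, 279, 327, 381 or 383 (adjusted p = 0.066 to 0.074) and on the second array of each node alone (adjusted p = 0.052), and it passed in 10 of 20 alternatives. The 4 calls rest on both wild-type arrays: without the first none of the 4 passed, and without the second 1 did. None passed after quantile normalization again of the centred values, with differences between -0.68 and -0.51.

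Probe set 1457441_at ran over the 8 nodes between -0.29 and 0.43 with a median of 0.04, and the wild-type arrays had -4.20 and -4.66. Both wild-type arrays lay far below every node. The difference was 4.48 ± 0.18 (adjusted p = 8.1e-08), or 22.4-fold with an interval from 17.1-fold to 29.3-fold. Only 6 of the 45101 probe sets had a larger positive difference, where 8.26% were called higher and 9.94% had all nodes above both wild-type arrays. It was between 4.25 and 4.71 when each node or wild-type array was left out in turn, and passed each time. Relative to the mean of the other 4 it stood 5.33 ± 0.14 higher (adjusted p = 1e-08), the largest value of either sign among the 21082 rows, of which 17.8% were called. The mean of the 5 Ebf1 probe sets, which oppose each other here, stood at 0.22 ± 0.17 and did not pass (adjusted p = 0.424 over 18194 gene means). The same mean was -1.37 ± 0.19 with Ebf1-Engrailed (adjusted p = 0.0043).

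**Figure D4:**
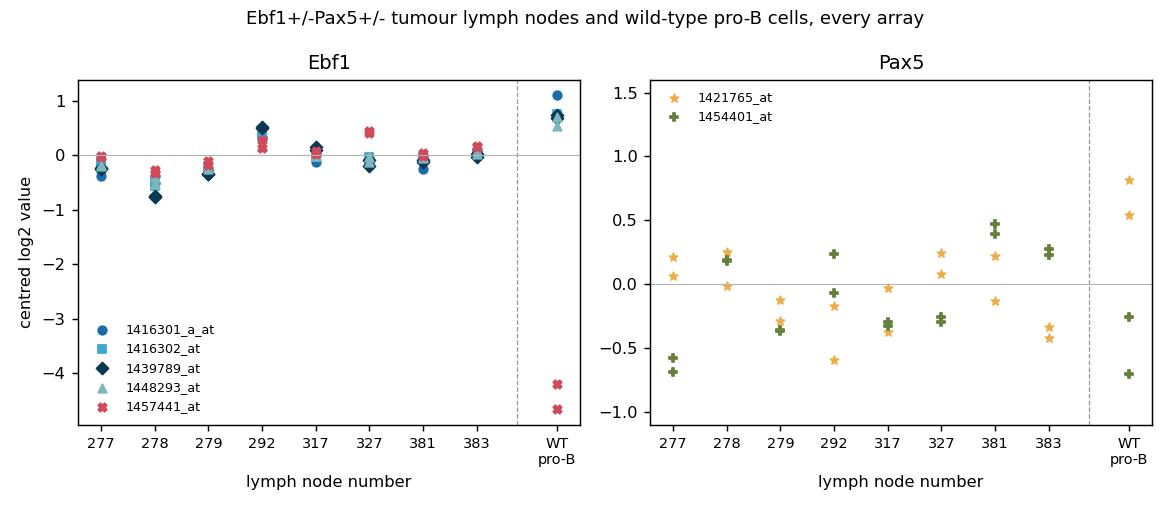
Centred log2 value (vertical axes) of every array of the 8 lymph nodes, by node number, and of the 2 wild-type pro-B arrays to the right of the dashed line. The wild-type arrays lie between 0.55 and 1.10 for 4 Ebf1 probe sets and at -4.20 and -4.66 for 1457441_at.

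**Figure D5:**
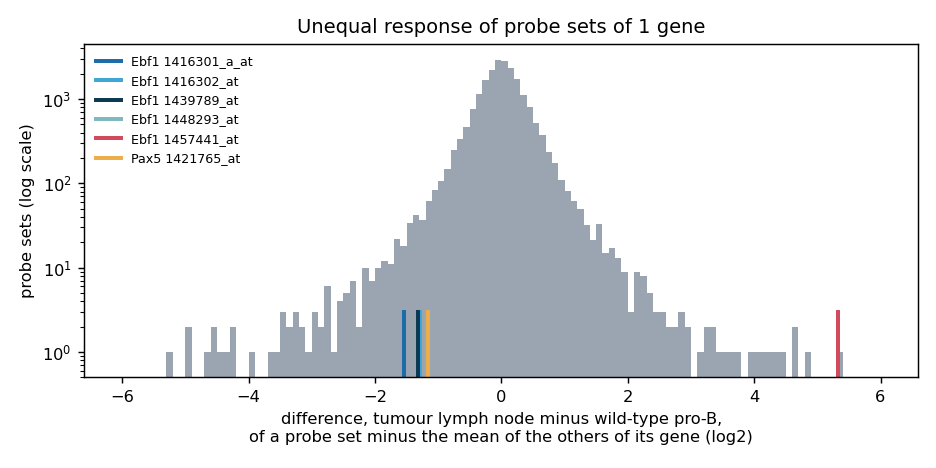
Histogram of the tumour minus wild-type difference of a probe set relative to the mean of the others of its gene (log2, horizontal axis) over 21082 rows, with the number of rows on a log axis and short coloured lines for the Ebf1 and Pax5 probe sets. Ebf1 1457441_at lies at 5.33 at the right end and the others of both genes between -1.55 and -1.16.

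The Pax5 probe sets parted as well. Probe set 1421765_at ran between -0.38 and 0.16 over the nodes (median -0.08), and the wild-type arrays had 0.54 and 0.81. Every node lay below both, and the difference was -0.77 ± 0.17 (adjusted p = 0.0130, interval -1.14 to -0.39). Probe set 1454401_at ran between -0.64 and 0.43 (median -0.10), and the wild-type arrays had -0.70 and -0.26. The groups overlapped, with 7 of 8 nodes above the wild-type mean, and the difference of 0.40 ± 0.26 did not pass (adjusted p = 0.353, interval -0.18 to 0.98). Relative to 1454401_at, 1421765_at stood 1.16 ± 0.31 lower (adjusted p = 0.0280, where 8.6% of rows were called lower). The call of 1421765_at was lost without the second wild-type array and after quantile normalization again, and its difference ranged from -0.90 to -0.63 when single nodes or arrays were left out.

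The nodes differed among themselves by more than their paired arrays. The moderated F test of limma over the 16 node arrays passed for all 7 probe sets, where 54.1% of all probe sets passed. The 4 Ebf1 probe sets moved together over the nodes: node 278 was lowest on all 4 (-0.75 for 1439789_at) and node 292 highest (0.51 for 1439789_at). The range of node means was 1.26 for 1439789_at (adjusted p = 3.2e-07) and between 0.63 and 0.88 for the other 3. Probe set 1457441_at was also lowest in node 278, at -0.29, but highest in node 327, at 0.43, and its range was 0.72 (adjusted p = 6.2e-05). For Pax5, 1454401_at ranged over 1.07, with node 277 lowest at -0.64 and node 381 highest at 0.43 (adjusted p = 8.8e-06). Probe set 1421765_at ranged over 0.54 (adjusted p = 0.0498), and this call was lost with robust eBayes (adjusted p = 0.0559). The second array lay above the first in 8 of 8 nodes for it, by 0.08 to 0.43, whereas the second was higher in 1 to 4 nodes for each of the other 6. With the array number as a term, chosen after the data were seen, its adjusted p was 0.00064 and all 7 passed, where 57.9% of all probe sets did. One sign in all 8 nodes was shown by 6.72% of all probe sets.

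How far the probe sets of a gene moved together is described by Pearson's r between pairs, whose points share arrays and, in the first 2 experiments, groups. Among the 4 Ebf1 probe sets r lay between 0.96 and 1.00 over the 6 arrays of the 230238 line. It lay between 0.81 and 0.95 over the 8 Ebf1-ER arrays and between 0.94 and 0.99 over the 8 node means. With 1457441_at the same 4 had r between 0.86 and 0.93, between -0.61 and -0.52 and between 0.66 and 0.73 in the same order. The 2 Pax5 probe sets had r of 0.20, 0.20 and -0.23.

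Over the 8 nodes Ebf1 and Pax5, each as the mean of its probe sets, had no relation that passed (Pearson's r = -0.25, exact permutation p = 0.551, and Spearman's rho = -0.07, exact permutation p = 0.882, two-sided). Without nodes 278 and 292, the 2 farthest from the Ebf1 median, r was 0.38. Of the 10 pairs of an Ebf1 with a Pax5 probe set, computed after the data were seen, 1416301_a_at with 1421765_at had the lowest r (-0.74, exact permutation p = 0.0339, adjusted p = 0.243 over the 10, and -0.56 without the 2 farthest nodes). None of the 10 passed the adjustment.

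Genes with the pattern most like each were ranked by the mean of Pearson's r over the 3 experiments (6 arrays, 8 arrays, and 8 node means with 2 wild-type arrays) among 18193 genes, as a description. For the mean of 5 Ebf1 probe sets the highest were Gzf1, a zinc finger protein (0.86), Inpp5k, an inositol phosphatase, 4833420G17Rik, Txndc16 and Atg14, an autophagy factor, the last at 0.86 too. For Pax5 they were Ffar2, a fatty acid receptor (0.71), 5830416I19Rik, Pank4, Spink5 and Osbpl2 (0.67). The genes nearest to Ebf1 over the nodes alone were Inafm2 (0.97), Hsd3b7, Usp15, Ino80dos and Stard8 (0.95), and those nearest to Pax5 were Tmem191c (0.97), Cgas, a sensor of cytosolic DNA, Hexdc, Dag1 and 1700013H16Rik (0.95). When 1457441_at was left out, a choice made after the data were seen, the genes nearest to Ebf1 over the 3 experiments were others, namely Trim11, a ubiquitin ligase (0.96), Eef2k, Cmip, Git2 and Zup1 (0.93).

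Around the members in the tumours, 3 of 34 probe sets of EBF1-activated genes and 6 of 28 of PAX5-activated genes were lower and none higher (medians -0.60 and -0.99, against 0.02 over all 34958 named probe sets, of which 2539 were lower and 3326 higher). Lef1, a transcription factor on both lists, stood at -2.07 ± 0.56, Cd72 at -1.60 ± 0.42 and Rag2, of the recombinase, at -1.76 ± 0.44. Of 49 probe sets of known regulators 3 were lower, all of Tcf3, which encodes E2A (-1.56 ± 0.37 on 1 of them). Another 2 were higher, with Bcl11a at 1.31 ± 0.28 on 1 of its probe sets. Genes repressed by PAX5 or EBF1 had 8 of 33 lower and none higher, with Fcer1g at -4.76 ± 0.70. No probe set of Ebf2, Ebf3 or Ebf4 was called, and of the other Pax genes 1 of 18 was, Pax6 at 0.30 ± 0.09.

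Markers of other cells differed between the nodes and the wild-type cells too, and their part in the Ebf1 and Pax5 differences was not tested. Of 13 myeloid marker probe sets 9 were lower in the nodes and none higher (median -2.32), with S100a9 at -7.99 and Mpo at -7.21, so these transcripts were higher in the wild-type pro-B arrays. Of 27 stromal marker probe sets 9 were lower, of 10 erythroid 2 were lower and 3 higher, and of 18 mature B-cell probe sets 1 was higher. Of 19 B-lineage marker probe sets 1 was lower (median -0.65). Over all 34958 named probe sets 2539 were lower and 3326 higher, which is 16.8% called. Of the mature B-cell and B-lineage probe sets 5.56% and 5.26% were called, less than that share. None of the 26 T-cell (median 0.62) and 11 NK-cell (median 0.03) probe sets was called. Centred values give no level, so it could not be read which markers were at background in either group.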

How the data were processed

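Expression was measured on 32 Affymetrix mouse arrays. The deposited log2 values were made by the authors with RMA, per the submitters' processing notes. This method subtracts background, gives all arrays 1 shared distribution and fits 1 value per probe set. The base of the logarithm is not stated in the labels, and 2 was assumed. The median of every probe set was 0 in the 230238 experiment (6 arrays) and in the Ebf1-ER one (8 arrays), and 24.0% of probe sets had a median of 0 over the 18 tumour and wild-type arrays, so the deposited values are centred within each experiment, in the last on a constant that is not known. Levels, a filter on low values and an intensity trend could therefore not be used.

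Names came from the platform's own annotation, brought up to date with RefSeq's mouse genes. Of the probe sets 34958 had 1 symbol (34754 found in RefSeq), 932 several and 9211 none. The members and gene lists were chosen with earlier results of these data known. All probe sets of Ebf1 and Pax5 were named in every comparison, up to 3 called members of a list, every called EBF or Pax family gene, and the 5 genes nearest in pattern. The test was limma's moderated one (limma 3.58.1, R 4.3.3) over all 45101 probe sets of an experiment, and errors are limma's standard errors. The 2 arrays of a lymph node were averaged, and node numbers were read as 1 mouse each, which the labels do not state. Correlations and figures used Python 3.11.15 with scipy 1.17.1, numpy 2.4.6, pandas 2.3.3 and matplotlib 3.10.9.

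Ebf1-Engrailed and empty-vector samples share replicate numbers in the labels. Deviations from the group means correlated at 0.26, 0.39 and 0.48 between samples of the same number, which meets the rule used here for pairs (each over 0.1). Ebf1-Engrailed sample 1 correlated better with empty-vector sample 2 (0.34), so the numbers separate the third samples more than the first 2. The reported fit has no block. The models were tested on simulated data. Alternatives were quantile normalization again, arrays centred on their medians, robust eBayes, other sets of probe sets, 1 value per gene, 1 fit over all groups, the replicate block, and samples left out. The quantile step was applied within each experiment to values that RMA had already normalized and that were then centred per probe set. It can therefore shrink differences of arrays that stand apart.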

Additional observations from a re-analysis of the deposited data

How the results depend on the processing

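Apart from samples left out one at a time, the 4 Ebf1 differences kept their sign except that 1 value per gene, which mixes in 1457441_at, gave 0.22 in tumours. Under that setting the mean of a gene stands in for each of its probe sets, whose own differences do not change. The Ebf1 mean was -0.40, -0.45 and -0.47 at 6, 12 and 24 h against 0 h. At 24 h against 6 h it was -0.063, and all 4 are opposite in sign to 1457441_at. The Pax5 mean was 0.11, 0.091 and 0.13 against 0 h, opposite to 1421765_at. It was 0.018 at 24 h against 6 h and -0.18 in tumours, opposite to 1454401_at. With quantile normalization again 0 members were called at 6 h, 1 at 12 h, 2 at 24 h and 1 in tumours, and over all probe sets 5753, 8550, 7619 and 1363, with 4625 at 24 h against 6 h. Relative to the other 4, 1457441_at was then 0.32 higher at 6 h (adjusted p = 0.291, range over alternatives 0.0089 to 0.291) and 0.38 at 12 h (adjusted p = 0.176, range 0.0055 to 0.176), not past the threshold. Pax5 1421765_at reversed to 0.0055 with Ebf1-Engrailed and 0.0014 at 24 h, and to 3.7e-05 with Ebf1-Engrailed once arrays were centred on their medians. In 1 fit over all groups 0, 1 and 0 members were called at 6, 12 and 24 h and 7360, 9089 and 8983 probe sets, with 386 at 24 h against 6 h. Over the nodes Ebf1 with Pax5 had r = 0.060 with the most variable probe sets. The cause of these changes was not tested.

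With the replicate number as a block 6160 probe sets were called with Ebf1-Engrailed, against 3989 without it. The replicate block changed no other call than that of 1457441_at. The Ebf1-ER arrays share only numbers (deviations correlated between -0.17 and 0.13), and there the block changed no call of a member. With samples 1 and 2 alone, chosen after seeing the data, 8275 were called.

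With 1 array or node left out, members called ranged from 3 to 4 with Ebf1-Engrailed, 2 to 4 at 6 h, 2 to 3 at 12 h, 2 to 4 at 24 h and 2 to 6 in tumours. All calls ranged from 1534 to 5322 with Ebf1-Engrailed, 940 to 1161 at 24 h against 6 h and 1806 to 7919 in tumours. Signs turned for 1421765_at (-0.048 to 0.029 with Ebf1-Engrailed, -0.18 to 0.0030 at 6 h, -0.28 to 0.075 at 12 h, -0.20 to 0.10 at 24 h, -0.11 to 0.19 at 24 h against 6 h) and for 1457441_at (-0.0047 to 0.14 at 6 h, -0.011 to 0.13 at 12 h). At 24 h against 6 h they turned for 1416301_a_at (-0.28 to 0.075), 1448293_at (-0.14 to 0.014) and 1454401_at (-0.11 to 0.094). Relative to the other 4, 1457441_at ranged from 0.50 to 0.68 at 6 h. Over all alternatives, quantile normalization again included, its 6 h call held in 7 of 9. With 2 arrays in several groups, a lone array left after such a removal is assumed to vary like the other groups. Signal over background could not be read from centred values.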
